A study of Mus musculus with 6 samples.

Results

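The genes described here encode oxygen-dependent histone and DNA demethylases, and they were followed in mouse splenic B cells with and without *Hif1a* that were driven towards IgA class switching. There were 10 of them among the 46983 genes listed, chosen by symbol: *Kdm3a*, *Kdm4a*, *Kdm4b*, *Kdm4c*, *Kdm5a*, *Kdm6a*, *Kdm6b*, *Tet1*, *Tet2* and *Tet3*. RNA was sequenced in bulk from 3 WT and 3 *Hif1a* KO libraries, called WT1 to WT3 and KO1 to KO3 by the replicate numbers of their labels. All cells came from spleen and were cultured for 3 days with TGF-β, BAFF and IL-5 (10 ng/ml each) beside LPS (5 μg/ml). In the *Hif1a* KO mice, on a C57BL/6 background, both *Hif1a* alleles were floxed and cre was driven by *Mb1* (*Cd79a*), so that the deletion takes place in the B-cell lineage. The WT mice were littermates that carried either 1 floxed allele together with cre or a pair of floxed alleles without cre. The labels do not say which of these a WT library came from, nor the age or sex of any animal.

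These enzymes are dioxygenases. They use molecular oxygen, iron and 2-oxoglutarate, a metabolite of the TCA cycle, to oxidize methyl groups, and they are inhibited by succinate, fumarate and 2-hydroxyglutarate. The KDM proteins remove methyl groups from lysines of histone H3 through their Jumonji (JmjC) domain, while the TET proteins oxidize 5-methylcytosine in DNA. *Kdm3a* and *Kdm4b* are known targets of HIF-1, the factor of which *Hif1a* encodes a subunit, and TET2 and TET3 are known to act at enhancers in B cells. The question put to the data was whether the transcripts of these genes differed between WT and *Hif1a* KO B cells.

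The depth of a library, read back from the steps between its values, lay between 25030210 reads in KO1 and 37222477 reads in WT1. A value of 1 read on a gene of 1 kb was worth 0.027 to 0.040 FPKM (fragments per kilobase of gene and per M reads counted). The libraries did not lie strictly by genotype. On the first principal component of all genes tested (54.7% of the variance), WT1 lay at −15.7, among the KO libraries (−19.5 to −7.10), while WT2 and WT3 lay at 26.2 and 25.9. KO2 stood apart on the second component (16.7% of the variance), at 22.6, and it was the only library with more than 4 reads on any of the Y-linked genes *Kdm5d*, *Uty*, *Ddx3y* and *Eif2s3y*. The targeted gene, *Hif1a*, had an FPKM of 36.5, 49.8 and 45.8 in WT1, WT2 and WT3 and of 46.5, 45.6 and 52.8 in KO1, KO2 and KO3. These values sum all exons and do not check the removal of the floxed part. The genotype of a library, that of WT1 included, therefore rests on its label alone, and every comparison of WT with KO below takes the label of WT1 as given. B-cell genes were high in every library, with *Ms4a1* at an FPKM of 326.5 to 445.0.

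In these cells 9 of the demethylase genes reached a mean FPKM of 0.5, the level required for testing, and *Tet1* was just below it. None of the 9 was differentially expressed between WT and KO cells. The values of 7 were on average lower in the KO libraries and those of 2, *Kdm4b* and *Kdm4c*, were higher, but *Kdm3a* and *Kdm5a* changed sign with median-ratio scaling of the libraries and *Kdm5a* also with quantile normalization. Of all genes tested, 7708 of 13312 (57.9%) were lower in KO libraries, or 6582 with median-ratio scaling and 6660 after quantile normalization. The largest differences were those of *Tet2*, with a log2 fold change of −0.34, and of *Kdm6a*, with −0.31, and each of these moved widely when a single library was left out, WT1 for *Tet2* (−0.55) and KO2 for *Kdm6a* (−0.026). All fold changes are KO relative to WT on the scale of log2(FPKM + 1).

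The counts behind this were as follows. By limma with Benjamini-Hochberg adjustment, 0 of the 9 had an adjusted p under 0.05, as did 0 of the 13312 genes tested (0%), and the lowest adjusted p of any gene was 0.321. Unadjusted p-values under 0.05 were found for 0 of the 9, against 929 of all genes tested (6.98%), of which 599 were lower in KO cells (4.50%). In 0 of the 9 did the WT and KO values lie wholly apart, against 1344 of all genes (10.1%), with the KO values below the WT values in 803 of these (6.03%). Limma voom on the recovered reads also called 0 of the 9 and 0 of all genes. The median log2 fold change of the 9 was −0.037, beside −0.028 for all genes tested. With 1 library left out it ran from −0.090 (without KO1) to −0.012 (without WT2), with −0.078 without WT1, and it was −0.0039 with median-ratio scaling. Their median residual SD was 0.10 on the log2 scale, beside 0.11 for all genes tested with a mean FPKM from 5 to 100. The p-values measure the spread between libraries, and the labels do not say whether these were separate animals. For a single gene, the exact permutation test of 3 against 3 libraries cannot reach a two-sided p below 0.1. In bulk RNA, fewer cells that express a gene and less of its RNA per cell cannot be told apart.

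**Figure D1:**
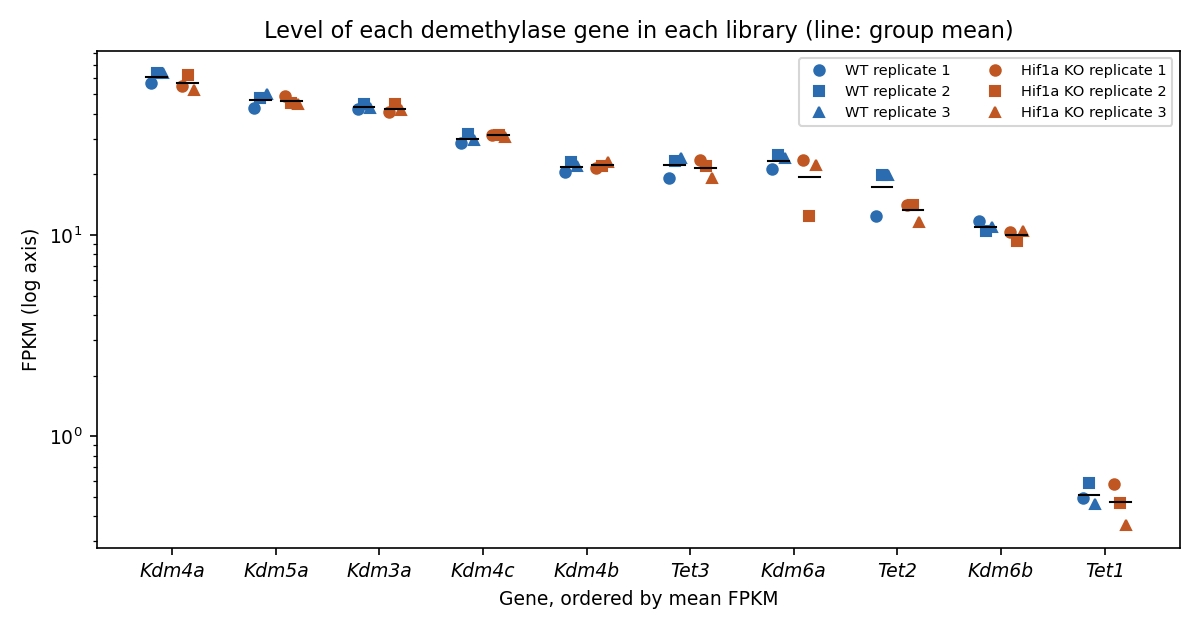
FPKM of the 10 demethylase genes (log axis) in each of the 3 WT and 3 *Hif1a* KO libraries, 1 point per library, with a line at each group mean. *Kdm4a* stood highest, *Tet1* was far below the others, and the groups overlapped in every gene, with *Kdm6a* in KO2 and *Tet2* in WT2 and WT3 apart from the remaining libraries.

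By FPKM, which is a level per length of gene, *Kdm4a* was the highest of the 10, with a mean over the 6 libraries of 59.0. *Kdm5a* (46.6) and *Kdm3a* (42.9) followed, then *Kdm4c* (30.6), and *Kdm4b*, *Tet3* and *Kdm6a* came close together at 22.0, 21.9 and 21.4. *Tet2* (15.3), *Kdm6b* (10.5) and *Tet1* (0.49) stood last. The ranges over the 6 libraries overlapped between *Kdm5a* and *Kdm3a*, *Kdm4b* and *Tet3*, *Tet3* and *Kdm6a*, *Kdm6a* and *Tet2*, and *Tet2* and *Kdm6b*, but within each library *Kdm5a* was above *Kdm3a* and *Tet2* above *Kdm6b* in 6 of 6, and *Kdm6a* above *Tet2* in 5. *Kdm4b* was above *Tet3* in only 2 libraries and *Tet3* above *Kdm6a* in 1. The order also depends on the length that is used. The deposited values of 8 of the 10 genes were computed with the mean length of their annotated transcripts, which is short where many fragments are annotated. The exceptions were *Kdm6a* and *Tet1*. Their recovered lengths were 4395 and 5376 bases, above mean transcript lengths of 2817.4 and 3404.7. Per kilobase of all annotated exons, and per M reads, *Kdm4a* was again first (31.3) and *Tet1* last (0.171), but *Kdm6a* moved up to rank 2 (11.2) and *Kdm5a* down to rank 6 (9.32). *Tet2*, at 3.20, was then below *Kdm6b*, at 5.58.

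Among the demethylases of H3K9, *Kdm3a* (ENSMUSG00000053470, chromosome 6 from 71588972 to 71632990, minus strand, GRCm38) encodes an enzyme for mono- and dimethylated H3K9. Its FPKM was 42.4, 44.7 and 42.9 in WT1, WT2 and WT3 and 40.9, 44.6 and 41.6 in KO1, KO2 and KO3. The highest values were those of WT2 and KO2, the lowest were KO1 and KO3, and the groups overlapped. Between its highest and lowest library *Kdm3a* differed by 1.09 times, the narrowest range of the 10. The log2 fold change was −0.034 (SE 0.062, 95% confidence interval −0.18 to 0.11, Benjamini-Hochberg adjusted p = 0.851 in limma), and it was −0.070 without KO2, −0.021 without KO3, −0.012 without WT2 and −0.0097 without KO1.

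The KDM4 enzymes act on trimethylated H3K9 and H3K36. *Kdm4a* (ENSMUSG00000033326, chromosome 4 from 118136957 to 118180043, minus strand) had an FPKM of 56.9, 63.4 and 63.5 in WT1, WT2 and WT3 and of 55.0, 62.5 and 52.6 in KO1, KO2 and KO3. WT2, WT3 and KO2 were high, while WT1 lay with KO1 and KO3, so that the groups overlapped. Its log2 fold change of −0.11 (SE 0.086, 95% confidence interval −0.31 to 0.093, Benjamini-Hochberg adjusted p = 0.678 in limma) moved to −0.18 without KO2, to −0.16 without WT1 and to −0.059 without KO3.

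*Kdm4b* (ENSMUSG00000024201, chromosome 17 from 56326062 to 56402870, plus strand) and *Kdm4c* (ENSMUSG00000028397, chromosome 4 from 74242497 to 74405860, plus strand) were the 2 genes with a higher mean in KO cells. For *Kdm4b* the FPKM was 20.6, 23.0 and 21.9 in WT1, WT2 and WT3 and 21.6, 22.0 and 22.9 in KO1, KO2 and KO3. Both the lowest and the highest value were WT values, with the KO values between them. For *Kdm4c* the FPKM was 28.7, 31.9 and 29.7 in the WT libraries, in the same order, and 31.5, 31.2 and 30.8 in the KO libraries. The KO values were close together (SD 0.348, n = 3), above WT1 and WT3 and below WT2. The log2 fold changes were 0.023 for *Kdm4b* (SE 0.068, 95% confidence interval −0.14 to 0.18) and 0.052 for *Kdm4c* (SE 0.064, 95% confidence interval −0.10 to 0.20), with Benjamini-Hochberg adjusted p of 0.911 and 0.776 in limma. The difference of *Kdm4b* changed sign without WT1 (−0.016) and without KO3 (−0.00058) and was 0.058 without WT2 and 0.040 without KO1, and that of *Kdm4c* was 0.020 without WT1 and 0.093 without WT2.

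*Kdm5a* (ENSMUSG00000030180, chromosome 6 from 120364124 to 120444574, plus strand) encodes a demethylase of di- and trimethylated H3K4, a mark of active promoters. Its FPKM was 42.5, 47.7 and 50.2 in WT1, WT2 and WT3 and 49.2, 45.3 and 44.5 in KO1, KO2 and KO3. WT1 was the lowest library and WT3 the highest, with all KO values inside the WT range. The log2 fold change was −0.012 (SE 0.081, 95% confidence interval −0.20 to 0.18, Benjamini-Hochberg adjusted p = 0.965 in limma), and its sign was not stable, since it was 0.039 without WT3, 0.016 without KO3, 0.0030 without KO2 and 0.0024 without WT2, but −0.055 without KO1 and −0.078 without WT1. Of the exon bases of *Kdm5a*, 1.77% are shared with *Ccdc77*, and it was not stated whether strand was used in the counting.

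*Kdm6a* and *Kdm6b* encode the demethylases of H3K27, UTX and JMJD3, which remove a repressive mark. *Kdm6a* (ENSMUSG00000037369, X chromosome from 18162575 to 18279936, plus strand) is known to escape X inactivation, so that females express it from both X chromosomes, and it has a copy on the Y chromosome, *Uty*. The FPKM of *Kdm6a* was 21.2, 24.9 and 24.1 in WT1, WT2 and WT3 and 23.6, 12.4 and 22.3 in KO1, KO2 and KO3. The KO2 library alone was low, at 0.533 of the mean of the other 5 libraries, and the values of KO1 and KO3 lay inside the WT range. The log2 fold change was −0.31 with all libraries (SE 0.23, 95% confidence interval −0.84 to 0.23, Benjamini-Hochberg adjusted p = 0.670 in limma) and −0.026 without KO2 (SE 0.096), −0.46 without KO1 and −0.43 without KO3.

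KO2 was also the library with Y-linked transcripts. *Uty* had an FPKM of 11.6 there, from 1187 reads, and at most 4 reads in any other library, while *Xist*, the RNA of the inactive X chromosome, was at 0.014 in KO2 and at 167.0 to 278.7 elsewhere. *Kdm6a* and *Uty* together had an FPKM of 21.2, 24.9 and 24.1 in WT1, WT2 and WT3 and of 23.6, 24.0 and 22.3 in KO1, KO2 and KO3, so the sum in KO2 lay inside the range of the other libraries. With this sum in place of *Kdm6a*, an alternative chosen after the values were seen, the log2 fold change was −0.005 (SE 0.080, Benjamini-Hochberg adjusted p = 0.984 in limma). Per kilobase of all annotated exons, however, the sum was 10.0 in KO2 and 11.1 to 13.1 in the other libraries, so whether *Uty* made up the difference depends on the lengths that are used.

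Low values of this kind in KO2 were rare on the X chromosome. Among the 284 X-linked genes whose mean FPKM reached 5, the median ratio of KO2 to the mean of the other 5 libraries was 0.990, beside 0.985 over 8975 autosomal genes, and *Kdm6a* had the third lowest ratio, after *Xist* and *Gm14541* (0.525). The related pair of H3K4 demethylases, *Kdm5c* on the X and *Kdm5d* on the Y chromosome, showed the same layout. *Kdm5c* had an FPKM of 39.9 in KO2 and of 52.5 to 61.3 in the other libraries, and *Kdm5d* had 19.7 in KO2 and at most 1 read elsewhere. A further pair, *Ddx3x* and *Ddx3y*, showed little of this on the X chromosome. *Ddx3x* had 314.4 in KO2 and 317.6 to 383.1 in the other libraries, with KO2 at 0.901 of their mean. *Ddx3y* had 43.3 in KO2 and at most 1 read elsewhere. The labels give no sex, and the part of sex in these differences was not tested.

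**Figure D2:**
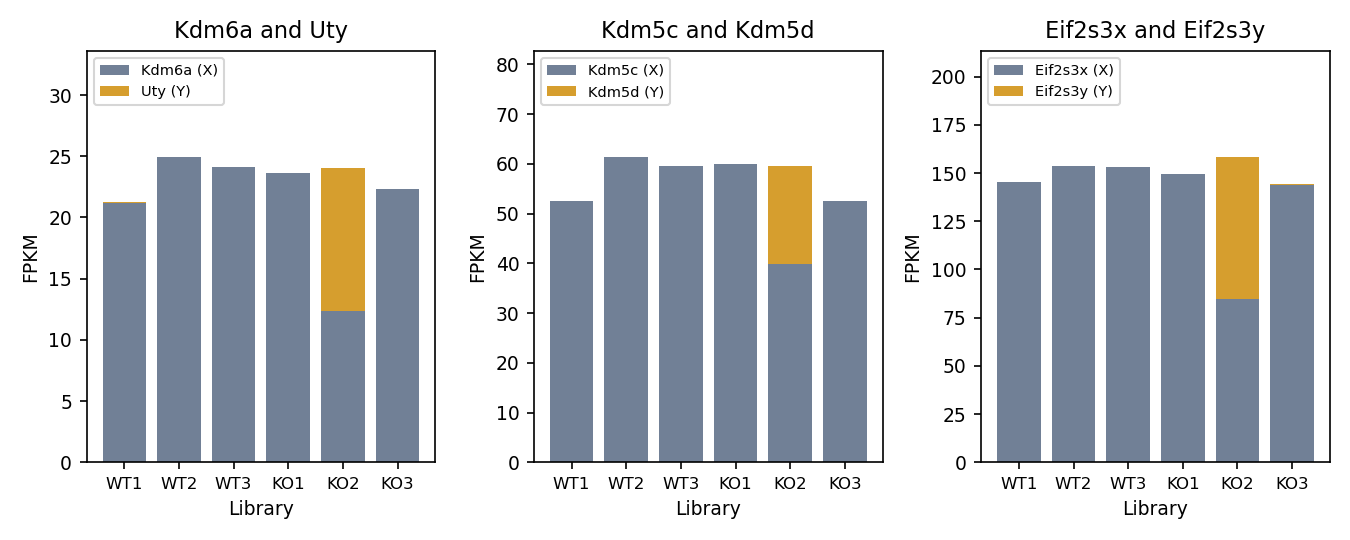
FPKM of 3 X-linked genes (grey) and, stacked on them, of their Y-linked copies (yellow) in each library, with linear axes that start at 0. *Kdm6a*, *Kdm5c* and *Eif2s3x* were lowest in KO2, the only library in which *Uty*, *Kdm5d* and *Eif2s3y* had more than a trace.

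*Kdm6b* (ENSMUSG00000018476, chromosome 11 from 69398508 to 69413675, minus strand), the autosomal H3K27 demethylase that is known to be induced in inflammation, had an FPKM of 11.7, 10.4 and 10.9 in WT1, WT2 and WT3 and of 10.3, 9.37 and 10.5 in KO1, KO2 and KO3. WT1 was highest and KO2 lowest, and the groups overlapped only because KO3 was slightly above WT2. In no other gene of the 9 tested was WT1 above both other WT libraries. Its log2 fold change was −0.12 (SE 0.081, 95% confidence interval −0.31 to 0.074, Benjamini-Hochberg adjusted p = 0.653 in limma), and it was −0.076 without WT1 and −0.075 without KO2. The antisense gene *Kdm6bos* covers 4.11% of its exon bases, and reads there cannot be told apart if strand was not used.

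Among the TET genes, *Tet1* (ENSMUSG00000047146, chromosome 10 from 62804570 to 62908996, minus strand), best known from embryonic stem cells, had few reads. It had 99, 97 and 64 reads in WT1, WT2 and WT3 and 78, 86 and 58 reads in KO1, KO2 and KO3, which gave an FPKM of 0.495, 0.583 and 0.458 and of 0.580, 0.466 and 0.361. WT2 and KO1 were highest and KO3 lowest, with overlapping groups. The exact Poisson 95% confidence intervals, which cover counting error only, ran from 0.473 to 0.711 in WT2 and from 0.274 to 0.467 in KO3. *Tet1* was not tested, and the difference of its group means was −0.044 on the log2 scale, which understates changes at such low levels.

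*Tet2* (ENSMUSG00000040943, chromosome 3 from 133463679 to 133545139, minus strand) had the largest difference of the 9 genes tested. Its FPKM was 12.4, 19.8 and 19.9 in WT1, WT2 and WT3 and 14.1, 14.1 and 11.6 in KO1, KO2 and KO3. WT2 and WT3 stood above every KO library, while WT1 lay inside the KO range, at 0.624 of the mean of WT2 and WT3. The log2 fold change was −0.34 (SE 0.19, 95% confidence interval −0.78 to 0.10, Benjamini-Hochberg adjusted p = 0.626 in limma). Without WT1 it was −0.55 (SE 0.098, Benjamini-Hochberg adjusted p = 0.027 in limma), so that *Tet2* was then called, lower in 3 of 3 KO libraries than in the 2 WT libraries left. In that fit 1251 of the 13312 genes tested (9.40%) were called as well, and *Tet2* was 1 of the 9 demethylase genes. Over all alternatives its adjusted p ran from 0.027 to 1 and its log2 fold change from −0.55 to −0.23, without a change of sign.

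*Tet3* (ENSMUSG00000034832, chromosome 6 from 83362373 to 83459084, minus strand) had an FPKM of 19.2, 23.4 and 24.0 in WT1, WT2 and WT3 and of 23.5, 22.1 and 19.2 in KO1, KO2 and KO3. As with *Tet2*, WT1 was below WT2 and WT3, but KO1 and KO2 were high here and the groups overlapped. The log2 fold change was −0.037 (SE 0.11, 95% confidence interval −0.31 to 0.23, Benjamini-Hochberg adjusted p = 0.913 in limma). It was −0.13 without WT1, −0.099 without KO1 and −0.055 without KO2, and 0.042, 0.021 and 0.0021 without KO3, WT3 and WT2. With median-ratio scaling it was −0.0039, and −0.0072 after quantile normalization. In all, WT1 was below WT2 and WT3 in 8 of the 10 genes, by the widest margin in *Tet2* and *Tet3* (0.809 of their mean).

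**Figure D3:**
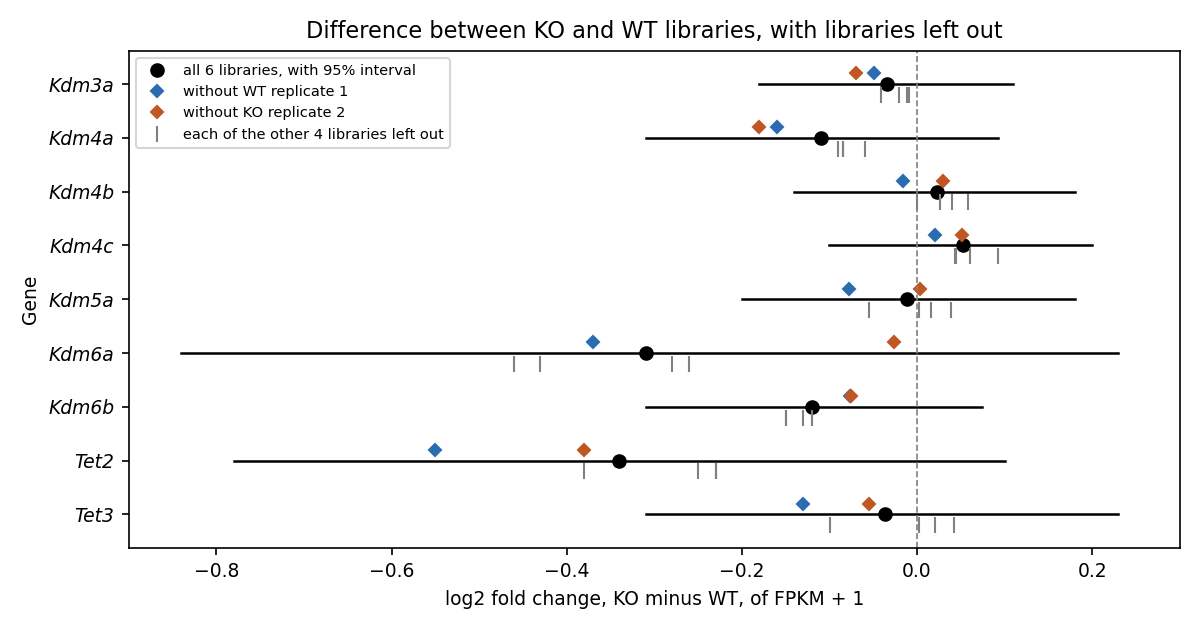
Log2 fold change (KO minus WT, of FPKM + 1) of the 9 genes tested, with the 95% confidence interval from limma over all 6 libraries (black), the value without WT1 (blue), the value without KO2 (orange) and the values with each of the other 4 libraries left out (grey ticks). Every interval included 0, *Tet2* moved to −0.55 without WT1, *Kdm6a* moved to −0.026 without KO2, and the differences of *Kdm4b*, *Kdm5a* and *Tet3* changed sign with a library left out, while *Kdm3a* and *Kdm5a* changed sign with another scaling.

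*Kdm6a* and *Tet2* varied most over the 6 libraries (SD of 0.36 and 0.31 on the log2 scale), and the genes with the most similar profiles were looked up for these 2 by the root mean square difference of their centred log2(FPKM + 1) values. Nearest to *Kdm6a* were *Eif2s3x* (0.047), *Pdgfa* (0.085), *Ighd1-1* (0.091), *Pbdc1* (0.099) and *Actn1* (0.12). All of them were lowest in KO2, and *Eif2s3x* and *Pbdc1* are X-linked. Nearest to *Tet2* were *Ctc1* (0.021), *Dmxl2* (0.028), *Uhrf1* (0.029), *Mthfd1l* (0.032) and *Cdon* (0.036), all high in WT2 and WT3 and lower in WT1 and the KO libraries. *Uhrf1*, which encodes the protein that brings DNMT1 to hemimethylated DNA, had an FPKM of 106.8, 158.9 and 158.6 in WT1, WT2 and WT3 and of 115.3, 118.8 and 95.5 in KO1, KO2 and KO3. These genes were chosen for their likeness to the profile, and likeness over 6 libraries says nothing of shared control.

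**Figure D4:**
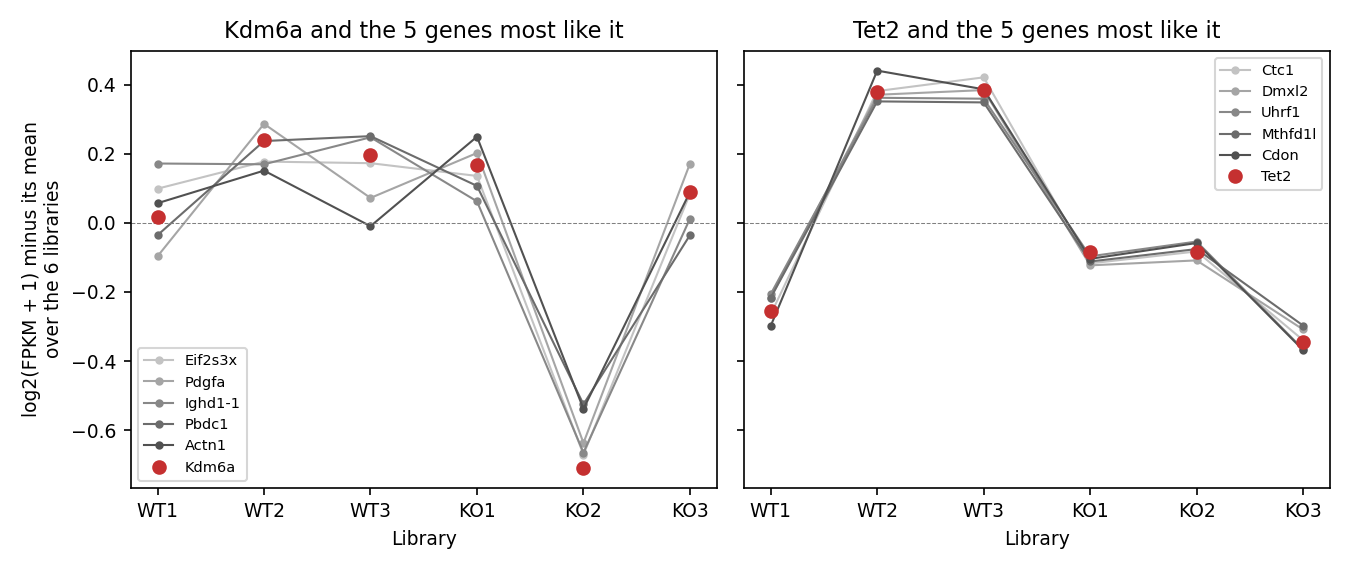
Centred log2(FPKM + 1) of *Kdm6a* and of *Tet2* (red points) in the 6 libraries, with the 5 genes nearest to each (grey lines). The *Kdm6a* group is lowest in KO2, and the *Tet2* group is higher in WT2 and WT3 than in the other 4 libraries.

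Because the groups differ in *Hif1a*, the start sites of the genes were searched for the letters that HIF-1 binds, ACGTG and GCGTG, on both strands. RefSeq windows (GRCm38.p6) of 300 bases, from 250 before to 50 after a start, were given for 7 of the 10 genes, 10 windows in all, and not for *Kdm4b*, *Kdm5a* and *Kdm6b*. At least 1 of the letter groups was present in 4 of the 10 windows, each of a different gene, and in 43.8% of all 32851 windows. ACGTG was present in *Kdm4c*, *Kdm6a* and *Tet2*, and in 19.6% of all windows. GCGTG was present in *Kdm3a*, *Kdm4c* and *Kdm6a*, and in 32.4% of all windows. The stretches that hold them are shown because they belong to the genes with the largest differences, *Tet2* and *Kdm6a*, and to *Kdm4c* and *Kdm3a*. Each is read 5′ to 3′ on the strand of its gene and holds the 250 bases before the start, or for *Kdm3a* the 30 bases around the match. Capitals mark ACGTG and GCGTG on either strand, where CACGTG holds ACGTG on both strands. The coordinates are chr6:71632925-71632954 (minus strand), chr4:74251629-74251878 (plus strand), chrX:18162325-18162574 (plus strand) and chr3:133544391-133544640 (minus strand). In GENCODE, the *Kdm6a* stretch lies outside any exon, those of *Tet2* and *Kdm4c* lie in an intron of a longer transcript of their gene, the latter also across an exon of the antisense RNA gene *A230083N12Rik*, and that of *Kdm3a* lies in the first exon of a longer transcript.
Kdm3a: gggaggctgtGCGTGtcttgtgagagagag
Kdm4c: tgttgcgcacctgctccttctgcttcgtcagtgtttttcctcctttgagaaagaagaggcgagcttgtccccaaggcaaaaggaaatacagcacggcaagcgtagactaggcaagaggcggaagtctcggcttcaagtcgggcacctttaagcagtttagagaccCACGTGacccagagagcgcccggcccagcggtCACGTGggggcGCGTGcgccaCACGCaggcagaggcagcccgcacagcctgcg
Kdm6a: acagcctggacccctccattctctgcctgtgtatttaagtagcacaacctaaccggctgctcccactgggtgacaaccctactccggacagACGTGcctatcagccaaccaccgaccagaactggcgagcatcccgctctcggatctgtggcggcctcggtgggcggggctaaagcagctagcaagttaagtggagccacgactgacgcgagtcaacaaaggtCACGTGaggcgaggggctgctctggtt
Tet2: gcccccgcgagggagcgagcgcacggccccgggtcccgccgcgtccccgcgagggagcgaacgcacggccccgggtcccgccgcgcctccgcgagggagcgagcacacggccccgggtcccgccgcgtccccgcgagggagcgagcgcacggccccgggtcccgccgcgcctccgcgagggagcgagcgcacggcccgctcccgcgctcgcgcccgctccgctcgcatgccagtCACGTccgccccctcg
The *Kdm4c* stretch held CACGTG at 2 places and GCGTG at 2, once on each strand. *Kdm6a* held CACGTG once and ACGTG once more, and its GCGTG lay after the start, in the part not shown. *Tet2* held ACGTG once, on the opposite strand. The genes that carry these letters included the ones with the largest negative differences as well as *Kdm4c*, with a log2 fold change of 0.052, and a match of letters shows no binding.

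Enzymes of the same chemistry were set beside the 10 genes, and the numbers of lower genes in all lists stand against the 57.9% of all genes tested that were lower. Of 24 other genes for JmjC proteins 21 were tested, with 7 higher and 14 lower in KO cells and a median log2 fold change of −0.023. Higher genes here included the Y-linked *Kdm5d* and *Uty*, whose values come from KO2 alone, and without these 2 genes 5 were higher and 14 lower, with a median of −0.035, which became 10 lower and a median of −0.0039 with median-ratio scaling, or of −0.00054 after quantile normalization. Of the same 19 genes 10 were lower without WT3 (median −0.0040), 11 without KO3 (−0.013) and 14 without WT1 (−0.059). *Riox2*, for a histidine hydroxylase of ribosomes, was the only one at an unadjusted p under 0.05. Its FPKM was 20.1, 24.8 and 24.2 in WT1, WT2 and WT3 and 19.1, 19.1 and 18.7 in KO1, KO2 and KO3, with a log2 fold change of −0.26 and all KO values below all WT values, as also in *Kdm5b* (−0.18). *Kdm2a* and *Jmjd1c*, the most abundant of the list by FPKM, had −0.12 and 0.061. The AlkB family, of the same class, includes nucleic acid demethylases. Of its 9 genes 7 were lower, with a median of −0.074 (−0.044 without KO1). With median-ratio scaling 5 were lower, and after quantile normalization 6 (medians −0.043 and −0.041). The most abundant, *Alkbh5*, had 0.010, and only *Fto* (−0.091) had separate groups. The 2 demethylases that use FAD and oxygen in place of 2-oxoglutarate, *Kdm1a* (−0.046) and *Kdm1b* (−0.16), overlapped between the groups.

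Genes for methyltransferases of the same histone lysines, and for subunits of their complexes, were set beside the 10 genes. These lists go by lysine, without regard to the number of methyl groups that an enzyme adds. For H3K9, opposite *Kdm3a* and the KDM4 genes, the methyltransferases had 5 of 6 genes lower (median −0.094), with *Ehmt2* at 0.024 and *Ehmt1* at −0.009. For H3K36, 4 of 5 were lower (median −0.079), with *Setd2* at −0.079 and *Nsd2* at −0.23. For H3K27, opposite *Kdm6a* and *Kdm6b*, 4 of 6 were lower (median −0.069), with *Eed* at −0.24 at an unadjusted p under 0.05 (but 0.0502 after quantile normalization), *Ezh2* at −0.029 and *Rbbp7* at −0.23, and *Ezh1* (0.068) was higher in 3 of 3 KO libraries. For H3K4, opposite *Kdm5a*, 10 of 10 were lower (median −0.092), with *Ash2l* at −0.26 at an unadjusted p under 0.05 *Kmt2b* at −0.045 and *Wdr5* at −0.18, and *Rbbp5* (−0.098) had separate groups. With median-ratio scaling the numbers that were lower became 4 for H3K9, 3 for H3K36, 3 for H3K27 and 9 for H3K4, with medians of −0.064, −0.045, −0.035 and −0.059, and after quantile normalization 4, 4, 5 and 9, with medians of −0.056, −0.066, −0.068 and −0.076. The counts and medians of these lists also moved with single libraries. Without KO3 only 5 of the 10 genes for H3K4 were lower (median −0.0088) and 2 of the 5 for H3K36 (median 0.034), beside a median of −0.021 for all genes. Without WT2 and without WT3 8 of the 10 for H3K4 and 3 of the 5 for H3K36 were lower, with medians for H3K36 of −0.028 and −0.015, and without KO1 and without WT1 the medians were −0.17 and −0.20 for H3K4 and −0.15 and −0.19 for H3K36. The median for H3K9 ran from −0.15 without WT1 to −0.040 without WT2 (−0.049 without WT3), with 4 to 6 genes lower, and that for H3K27 from −0.11 without WT1 or KO1 to −0.041 without WT2 or KO2, with 3 to 5 genes lower. Single genes named above changed sign as well. Without KO3 *Ehmt1* (0.038), *Setd2* (0.034) and *Kmt2b* (0.027) were higher, and without KO2 *Ezh2* was higher (0.033) and *Ehmt2* lower (−0.016). The genes for proteins that join UTX in its complex, of which *Kmt2c* and *Kmt2d* were counted for H3K4 already, had 4 of 4 genes tested lower. Their median was −0.069. With median-ratio scaling 3 were lower (median −0.036), and after quantile normalization 4 (median −0.05). *Paxip1* had −0.058 and *Kmt2c* −0.081, and *Pagr1a* was too low to test. Without KO3 2 of these 4 were lower (median −0.0048), without WT2 and without WT3 3 (−0.034 and −0.018), with *Kmt2c* at 0.0051 and 0.0087, and the median was −0.036 without KO2, −0.18 without WT1 and −0.19 without KO1.

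Around the TET genes, 7 of 10 partners in DNA methylation were lower and 3 higher under each scaling, with a median of −0.092, −0.18 without WT1, −0.14 without KO1, −0.054 without WT3 and −0.061 with median-ratio scaling. Those at an unadjusted p under 0.05 were *Gadd45b* (−0.45) and *Mbd4* (0.18, all KO values above all WT values), and the most abundant were *Ogt* (−0.056) and *Uhrf1* (−0.34). *Ogt* was −0.16 without KO2 but 0.087 without KO3, and *Uhrf1* ran from −0.53 without WT1 to −0.25 without WT2, WT3 or KO3. Of 19 genes that supply 2-oxoglutarate or handle the metabolites that compete with it, 14 were lower and the median was −0.041. With median-ratio scaling 11 were lower (median −0.0061), and after quantile normalization 14 (median −0.039). The median was −0.020 without KO2 and −0.024 without WT3. *Sdha* (−0.010), for a subunit of succinate dehydrogenase, and *Glud1* (−0.068) were the most abundant, and *Psat1*, whose enzyme makes 2-oxoglutarate during serine synthesis, had the widest difference. *Psat1* had an FPKM of 109.2, 226.7 and 238.5 in WT1, WT2 and WT3 and of 117.6, 108.9 and 99.3 in KO1, KO2 and KO3, so that WT1 again lay with the KO libraries, as in *Tet2*, and its log2 fold change was −0.73. Of 16 HIF targets outside glycolysis 10 were lower (9 with the other scalings), with a median of −0.19, 4 at an unadjusted p under 0.05 (3 with each of the other scalings, without *P4ha1*; *Vegfa* −0.80, *Ddit4* −0.52, *P4ha1* −0.26 and *Higd1a* −0.24) and separate groups in the last 3 of these. Among all genes tested 6.98% had an unadjusted p under 0.05 and 10.1% separate groups, and 4.50% and 6.03% had these with lower values in KO cells. *Vegfa* had an FPKM of 10.9 in WT1, inside the KO range (9.41 to 11.4), against 24.9 and 23.9 in WT2 and WT3. Its log2 fold change was −1.2 without WT1 and −0.6 without WT2. The median of the 16 targets ran from −0.22 without WT1 to −0.14 without WT2, with 9 to 11 genes lower when single libraries were left out. *Bhlhe40*, the most abundant of the targets, had −0.14. In *Kdm3a* (−0.034) and *Kdm4b* (0.023), named above as known targets of HIF-1, the groups overlapped. No gene of these lists passed an adjusted p of 0.05 by limma with Benjamini-Hochberg adjustment with all libraries, against 0% of all genes. Without WT1, where 9.40% of all genes were called, the calls beside *Tet2* were *Riox2* among the other JmjC genes, *Eed* and *Rbbp7* among the H3K27 writers, *Ash2l* among the H3K4 writers, *Uhrf1*, *Cxxc5* and *Gadd45b* among the DNA methylation partners, *Psat1* among the metabolic genes and 6 of the 16 HIF targets, 5 lower and 1 higher.

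**Figure D5:**
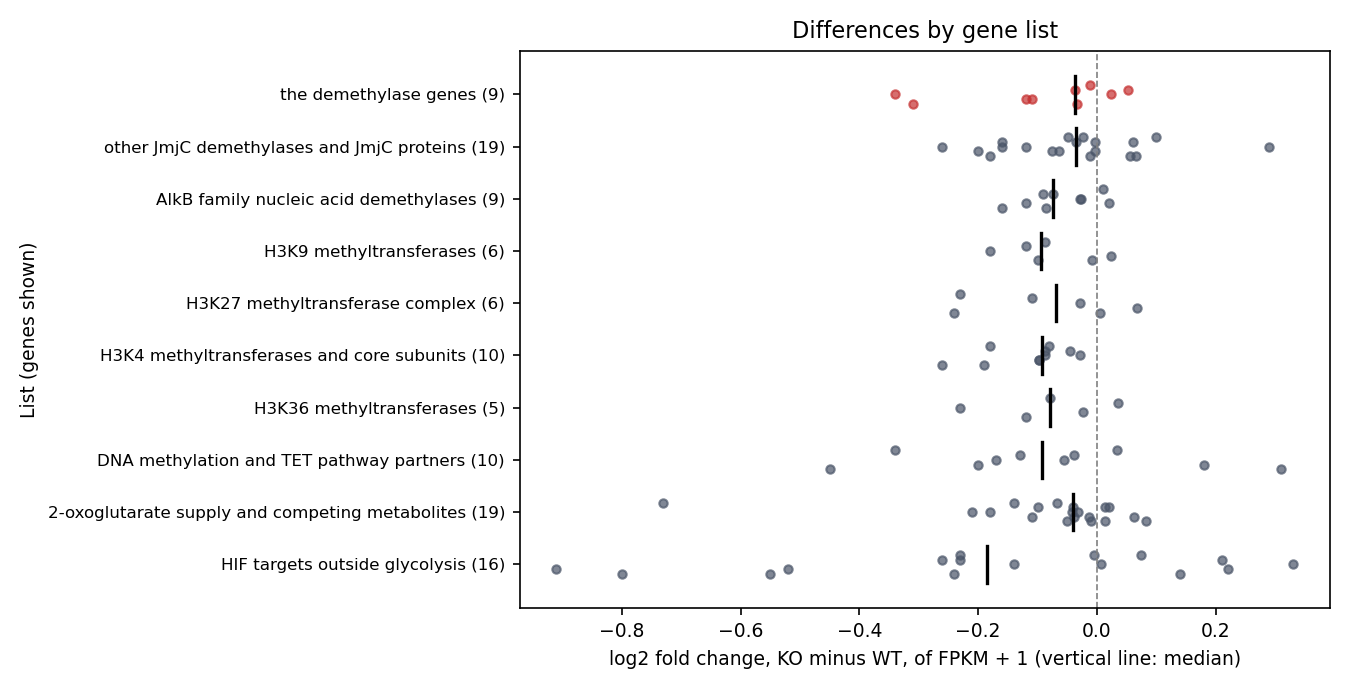
Log2 fold change (KO minus WT, of FPKM + 1) of each gene tested, by list, with the number of genes shown in brackets and a line at their median. The demethylase genes (red) lay between −0.34 and 0.052, the HIF targets spread more widely, and *Kdm5d* and *Uty* are left off the second row because their values come from KO2 alone. With median-ratio scaling the medians of the first 2 rows, −0.037 and −0.035, both became −0.0039.

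Among genes of class switching and plasma cell formation, *Igha*, the constant region gene of IgA, had an FPKM of 62.2, 34.6 and 32.3 in WT1, WT2 and WT3 and of 66.9, 58.0 and 74.5 in KO1, KO2 and KO3. WT1 lay near the KO libraries, in the direction opposite to *Tet2*, and the log2 fold change was 0.67, at an unadjusted p under 0.05. *Prdm1* (0.82) and *Irf4* (0.17) overlapped between the groups as well, and *Igha* and *Prdm1* were called without WT1.

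Some markers of other cells were, like *Tet2*, higher in WT2 and WT3 than in the other libraries. The macrophage and monocyte list of 10 genes summed, without its most abundant gene *Apoe* (an FPKM of 1090.5 to 2837.1, higher on average in KO libraries), to 73.2, 169.9 and 118.8 in WT1, WT2 and WT3 and to 73.6, 78.4 and 66.5 in KO1, KO2 and KO3. Of its 5 genes tested 4 were lower in KO cells, *Lyz2* had 6.18, 58.3 and 26.2 in the WT and 0.6, 2.23 and 3.70 in the KO libraries, and *C1qb* and *C1qc* were at 0 in KO1. The erythroid list of 6 genes summed to 16.2 and 13.5 in WT2 and WT3 and to 2.91 to 4.72 in the others, with *Hbb-bs* as its most abundant gene. Most plasma cell genes went the other way, with a sum over 7 genes, led by *Mzb1*, of 1406.6, 938.9 and 892.9 in the WT and 1345.8, 999.4 and 1732.0 in the KO libraries. Of the 6 tested 5 were higher in KO cells and *Sdc1* was lower (−0.14), with 0 at an unadjusted p under 0.05. Their median log2 fold change was 0.32, and it ran from 0.11 without KO3 to 0.55 without KO2. According to its methods the study sorted follicular B cells (CD21int CD23+) from spleen for its class switching cultures, while the labels of these libraries say only splenic B cells. The part of other cells in the difference of *Tet2* was not tested.

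The remaining marker lists are given by their summed FPKM. Neutrophil genes (7 genes, led by *S100a9*) summed to 37.6 in WT1 and to at most 0.528 in the other libraries. The 7 T-cell genes summed to between 0.995 and 1.68 without *Lck*, which had an FPKM of 90.1 to 136.9. *Lck* was higher in KO cells (0.37, at an unadjusted p under 0.05, all KO values above all WT values) and was called without WT1. The 5 NK and innate lymphoid genes summed to between 1.0 and 2.49, led by *Prf1*, with *Gzma* at 0 in every library. The 6 dendritic cell genes, led by *Flt3*, summed to 16.8, 16.2 and 17.9 in WT1, WT2 and WT3 and to at most 13.0 in KO libraries, with *Siglech* (−0.68, at an unadjusted p under 0.05, all KO values below all WT values) highest in WT1, and the 6 stromal and endothelial genes, led by *Pecam1*, to 76.6 to 98.5. The 8 B-cell genes, led by *Cd79a*, summed to 3060.1 to 4101.7, with KO2 highest.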

How the data were processed

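The authors aligned paired-end reads to mm10 (GRCm38) with TopHat, counted them on genes with HTSeq and deposited FPKM values computed from count and gene length, 1 column per library. Strand use, annotation release and the treatment of reads with several alignments were not stated, and the stimulus is given as in the labels. Here, symbols and coordinates came from GENCODE vM21, which held 46488 of 46983 IDs. Reads were recovered from the steps between FPKM values. For each of the 25717 genes above 0, the smallest length giving whole reads within a tolerance of 0.001 was taken, so whole reads are no check. Of 9775 genes annotated with a single transcript, 75.6% had the GENCODE transcript length. The 13312 genes whose mean FPKM reached 0.5 were tested with limma 3.58.1 in R 4.3.3 (lmFit, eBayes with trend, two-sided) on log2(FPKM + 1), a pseudocount of 1, without covariates and with Benjamini-Hochberg adjustment, called at an adjusted p under 0.05. The fit was checked on simulated data. Python 3.11.15 with pandas 2.3.3, numpy 2.4.6, scipy 1.17.1 and matplotlib 3.10.9 did the rest. The members and the gene lists were chosen with earlier results of these data known. All 10 demethylase genes are named, and of each list the genes at an unadjusted p under 0.05 or with separate groups and examples among the most abundant. *Gm14541* and single marker genes were named after their values were seen. A few genes of the lists are not reported here.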

Additional observations from a re-analysis of the deposited data

How the results depend on the processing

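The alternatives tried were the replicate number as a block, voom on recovered reads, quantile normalization, median-ratio scaling, FPKM rescaled without immunoglobulin genes, a pseudocount of 0.1, no trend in eBayes, a filter at a mean FPKM of 5 or no filter except above 0, and each library left out in turn. The sum of *Kdm6a* and *Uty* was added after the values were seen. *Kdm4a*, *Kdm4c*, *Kdm6a* and *Kdm6b* kept their direction and their side of the threshold in all of these, and *Tet2* kept its direction. With median-ratio scaling the log2 fold changes of *Kdm3a* and *Kdm5a* turned to 0.00017 and 0.022, and with quantile normalization that of *Kdm5a* turned to 0.0042. With 1 library left out, the log2 fold change ranged from −0.016 to 0.058 for *Kdm4b*, from −0.078 to 0.039 for *Kdm5a*, from −0.13 to 0.042 for *Tet3* and from −0.55 to −0.23 for *Tet2*, which was called without WT1. The genes called numbered 0 to 1251 (1251 without WT1 and 1 without KO1), the demethylase genes at an unadjusted p under 0.05 numbered 0 to 1, and those with separate groups 0 to 3, where a smaller group separates more easily. The cause of the changes was not tested. With the replicate block 0 genes were called, the log2 fold change of *Tet2* stayed at −0.34 (Benjamini-Hochberg adjusted p = 0.780 in limma) and no direction or call of the 9 genes changed. The deviations of WT and KO libraries from their group means had r of −0.099, 0.139 and −0.276 for the same numbers 1, 2 and 3. Between different numbers r ran from −0.2 to 0.304. With 3 libraries per group the deviations constrain one another, so these values cannot settle whether the numbers mark pairs. The numbers were not taken as pairs. Depth limits *Tet1*, with 58 to 99 reads per library.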
